A study of Mus musculus with 22 samples.

Results

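Ribosome-associated mRNA of inhibitory interneurons was compared with that of dentate gyrus granule cells, both taken from the mouse hippocampus. The comparison holds 6 of the 22 mRNA libraries of the series. They are the 3 interneuron libraries, all of batch 2, and the 3 granule cell libraries of batch 1. The series also holds a batch 2 run of granule cell replicate 3, which served as a check on the run. All mice were 6 weeks old and carried the floxed RiboTag allele of the ribosomal protein gene Rpl22 in 1 copy (Rpl22 Fl/+), in which Cre switches the last exon to an HA-tagged version, so that ribosomes of Cre-expressing cells can be pulled down with an antibody to HA. Interneurons were tagged with Dlx6a-Cre, a transgene active in GABAergic neurons of the forebrain, and each library pooled hippocampi from 2 mice, male and female in replicates 1 and 2 and both male in replicate 3. Granule cells were tagged with Rbp4-Cre, a bacterial artificial chromosome transgene that was also used in this series for layer V neurons of the cortex. Granule cell replicates 1 and 2 were female and replicate 3 was male. Cre came from the father in both crosses. Because whole hippocampus was the starting tissue, any hippocampal cell with a history of Cre could contribute, and neither input RNA nor a pull-down without Cre was analysed here.

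Interneurons are the local inhibitory cells of the hippocampus. They make the transmitter GABA with the decarboxylases encoded by Gad1 and Gad2, load it into vesicles with the transporter encoded by Slc32a1, and fall into many subclasses that are told apart by neuropeptides and calcium-binding proteins. Granule cells are the glutamatergic principal neurons of the dentate gyrus, which receive input from the entorhinal cortex and send mossy fibers to CA3, and the homeodomain factor Prox1 is required for their identity. Prox1 is also known in interneurons that originate in the caudal ganglionic eminence. Since both cell types share a tissue, their comparison shows which transcripts differ between interneuron and granule cell libraries of the same region. These libraries also differ in batch, in Cre driver and in the sex of the mice.

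The 6 libraries held 38270477 to 59763961 estimated counts each. Pearson correlations of log2 expression over genes were 0.989 to 0.994 among the 6 pairs of replicates and 0.893 to 0.906 among the 9 pairs across cell types. Of 17378 genes that passed the filter on low counts, 2932 (16.9%) were called higher in interneurons and 2304 (13.3%) were called higher in granule cells. A call required an adjusted p of at most 0.05 in the quasi-likelihood test of edgeR and a change of at least 2-fold. The shares of 16.9% and 13.3% are the background for counts of called genes in the lists below. At 8-fold the counts were 719 and 404, and at 32-fold they were 195 and 83, so that the largest differences were more often on the side of the interneurons. Among the genes called at 2-fold, the libraries of the cell types did not overlap for 2911 of 2932 and for 2275 of 2304. The median log2 fold change of all tested genes was 0.005. Batch and cell type cannot be told apart in these 6 libraries. The batch 2 run of granule cell replicate 3 differed from its batch 1 run by a chi-square of 1.74 per degree of freedom, against 10.1 to 42.5 between replicates, so it appears to be the same library sequenced again and speaks to the run and not to library preparation. With that run as the only granule cell library, all of batch 2, 2781 and 2252 genes were called, of which 2528 and 1967 were shared with the main calls. Values below are CPM, counts per 1000000 counts of a library scaled by the trimmed mean of M-values (TMM), a level to be compared between libraries for the same gene, and folds are interneurons over granule cells on the log2 scale unless stated.

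**Figure D1:**
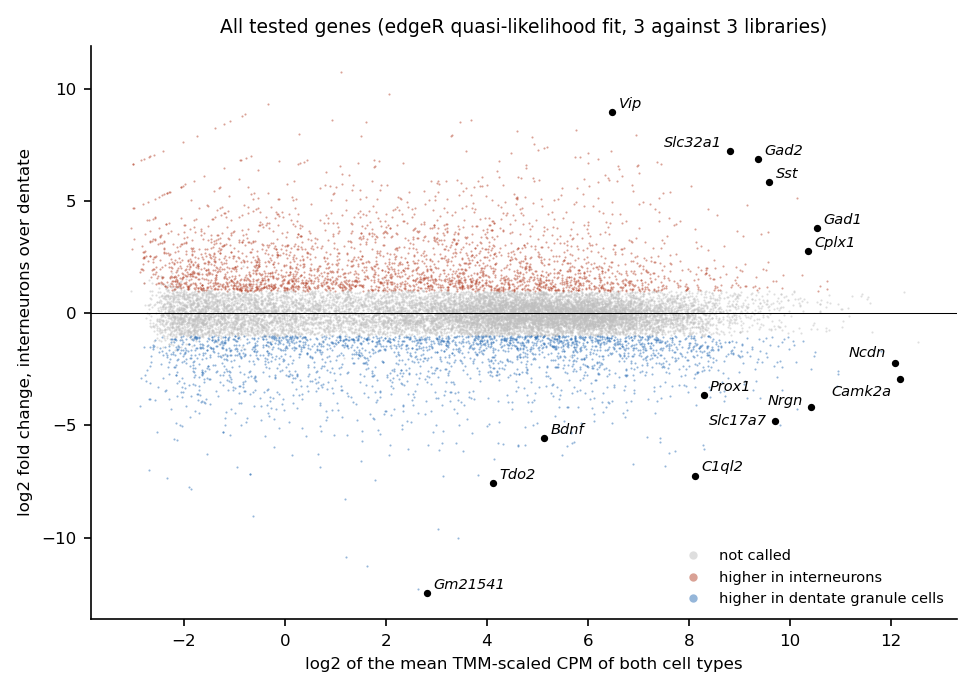
Log2 fold change of interneurons over granule cells (vertical axis) against the log2 of the mean CPM of both cell types (horizontal axis) for the 17378 tested genes, with called genes in red (2932 higher in interneurons) and blue (2304 higher in granule cells). Named genes of inhibitory identity such as Vip, Gad2 and Slc32a1 lie far above 0, and Prox1, C1ql2, Slc17a7 and Camk2a lie far below it.

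The transcripts that define the inhibitory and the excitatory phenotype separated the libraries without overlap. Gad1 (chr2:70553072-70602014, GRCm38) was at 2819, 2789 and 2752 CPM in interneuron replicates 1 to 3 and at 207, 211 and 186 CPM in granule cell replicates 1 to 3. Gad2 (chr2:22622205-22693874) was at 1309.7, 1361 and 1267 CPM in interneurons and at 8.42, 11 and 14.3 CPM in granule cells. Prox1 (chr1:190118035-190170714) ran the other way, at 42.2, 49.5 and 48.5 CPM in interneurons and 623, 614 and 507 CPM in granule cells. Every interneuron library was thus above every granule cell library for both decarboxylases and below every one for Prox1. The log2 fold changes were 3.79 ± 0.073 (SE, adjusted p = 2.7e-09, edgeR) for Gad1, 6.87 ± 0.19 (adjusted p = 1.1e-08) for Gad2 and -3.64 ± 0.1 (adjusted p = 1.3e-08) for Prox1. Within batch 2 they were 3.89, 6.45 and -3.44.

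The proximal promoters of 4 identity genes are shown because their sequence can be read beside these levels. Each spans 250 bases before to 50 bases after the RefSeq start (GRCm38.p6), written 5′ to 3′ along the gene. Capitals mark matches on either strand to 4 short motifs that were searched, namely the cyclic AMP response element TGACGTCA, the neuronal basic helix-loop-helix box CAGATG, the homeodomain core TAATTA and the box CAGCTG.
Sst (chr16:23890795-23891094, minus strand): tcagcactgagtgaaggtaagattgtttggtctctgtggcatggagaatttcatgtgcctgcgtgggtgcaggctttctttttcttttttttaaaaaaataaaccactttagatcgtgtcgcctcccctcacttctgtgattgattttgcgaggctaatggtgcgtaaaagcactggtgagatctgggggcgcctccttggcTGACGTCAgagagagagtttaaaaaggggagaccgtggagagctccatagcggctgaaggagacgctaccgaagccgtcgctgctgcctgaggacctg
Gad2 (chr2:22622077-22622376, plus strand): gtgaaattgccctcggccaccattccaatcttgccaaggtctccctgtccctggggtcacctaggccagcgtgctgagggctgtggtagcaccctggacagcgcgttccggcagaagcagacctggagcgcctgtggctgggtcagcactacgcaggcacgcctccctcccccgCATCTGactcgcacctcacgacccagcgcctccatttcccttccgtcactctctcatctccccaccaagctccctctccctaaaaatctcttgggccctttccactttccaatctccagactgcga
Prox1 (chr1:190170778-190171077, minus strand): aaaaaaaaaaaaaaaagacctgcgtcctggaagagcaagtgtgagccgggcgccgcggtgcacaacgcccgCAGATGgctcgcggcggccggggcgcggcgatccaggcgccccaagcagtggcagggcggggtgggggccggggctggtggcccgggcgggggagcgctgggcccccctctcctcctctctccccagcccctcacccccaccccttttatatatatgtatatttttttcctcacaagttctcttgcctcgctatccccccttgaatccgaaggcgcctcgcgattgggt
Neurod2 (chr11:98329596-98329895, minus strand): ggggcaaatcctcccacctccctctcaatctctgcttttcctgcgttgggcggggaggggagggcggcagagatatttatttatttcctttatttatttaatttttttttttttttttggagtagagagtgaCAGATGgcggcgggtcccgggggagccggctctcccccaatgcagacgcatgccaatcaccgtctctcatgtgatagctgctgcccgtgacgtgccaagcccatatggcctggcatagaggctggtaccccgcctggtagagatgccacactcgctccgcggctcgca
The Sst window holds the full cyclic AMP response element, which begins 48 bases before the start and which 1.79% of all 32851 promoters of this length also hold. Gad2, Prox1 and Neurod2 each hold 1 match to CAGATG, a box found in 17.2% of promoters, while TAATTA (5.29%) and CAGCTG (16.3%) match in none of these windows. Prox1 has another annotated promoter, which holds none of these motifs. The windows of Gad1, Slc32a1, Vip and C1ql2, looked at in the same way, hold none of them either.

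All 7 genes of GABA synthesis, packaging and uptake were called higher in interneurons, with a median log2 fold change of 3.79. Slc32a1, the vesicular GABA transporter, was at 941, 871 and 869 CPM against 3.86, 6.28 and 7.75 CPM. No library of one cell type came near the other, with a log2 fold change of 7.23. Abat and Aldh5a1, which break GABA down, were 10.7-fold and 2.75-fold higher in interneurons, and the transporter gene Slc6a11, known mainly from astrocytes, was 2.21-fold higher. The granule cells did not carry the inhibitory genes in equal measure. Their Gad1 level was 7.21% of the interneuron level, whereas their Gad2 and Slc32a1 levels were 0.856% and 0.667%. In TPM, transcripts per 1000000 transcripts, which corrects for transcript length and so allows genes to be set beside each other, Gad1 exceeded Gad2 in both cell types, at 2029 and 569.7 TPM in interneurons and at 149.5 and 4.73 TPM in granule cells. Granule cells are known to contain some of the enzyme encoded by Gad1.

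Glutamatergic genes were split by transporter. Slc17a7, the vesicular glutamate transporter of cortical and hippocampal principal neurons, was at 54.5, 55.1 and 63.1 CPM in interneurons and 1563, 1679 and 1595 CPM in granule cells. Its log2 fold change was -4.81 ± 0.082. Slc17a8, which encodes the transporter that some interneurons use beside GABA, was at 42.6, 44.7 and 45.2 CPM against 0.265, 0.307 and 0.347 CPM, the opposite order and a log2 fold change of 7.16. The vesicular zinc transporter gene Slc30a3, characteristic of mossy fibers, was 6.76-fold higher in granule cells, and the vesicle protein gene Sv2b was 5.55-fold higher. Slc17a6 was low, at 0.197, 0.598 and 0.292 CPM in interneurons and 2.63, 6.97 and 13.3 CPM in granule cells, with the highest granule cell value in replicate 3. Its log2 fold change was -4.35, and -3.67 without that library or -4.94 without interneuron replicate 2. In all, 4 of 8 genes of this list were called higher in granule cells and 1 in interneurons.

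**Figure D2:**
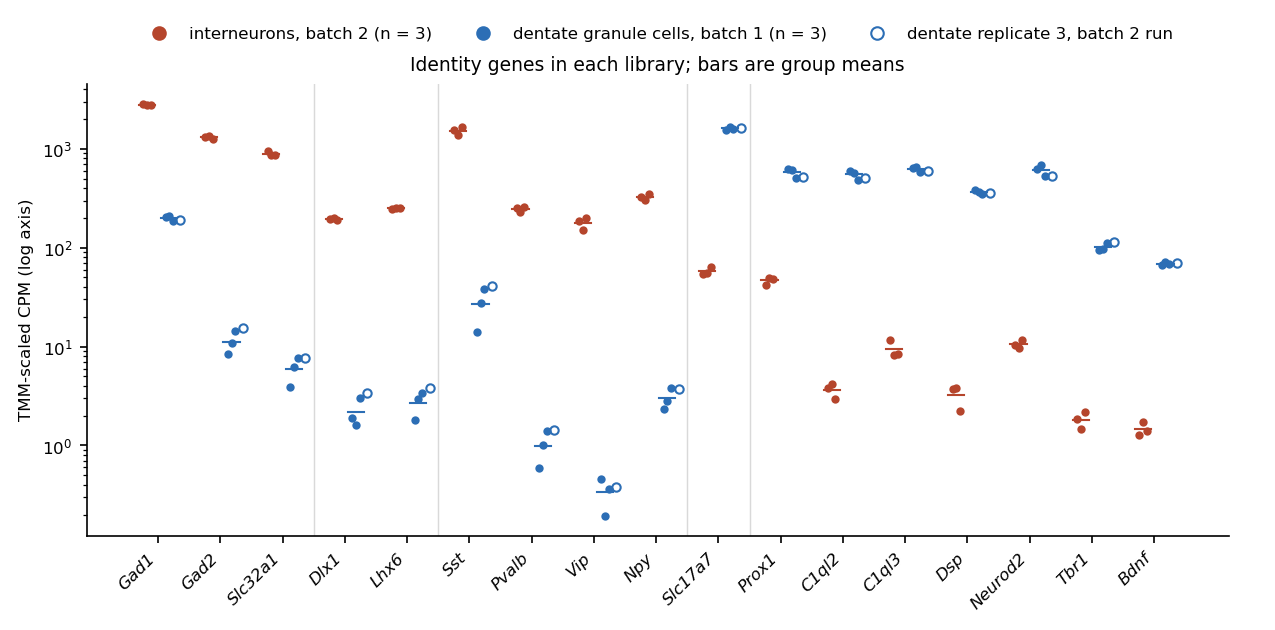
CPM (log axis) of 17 identity genes in each library, with red points for the 3 interneuron libraries, filled blue points for the 3 granule cell libraries of batch 1, open blue points for the batch 2 run of granule cell replicate 3, and bars for group means. From Gad1 to Npy all red points lie above all blue points, from Slc17a7 to Bdnf all lie below, and each open point lies close to the filled point of replicate 3.

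Transcription factors of the interneuron lineage were among the clearest differences. Of 19 factors listed, 16 were called higher in interneurons and 3 in granule cells. Dlx1, of the distal-less family that specifies forebrain GABAergic neurons, was at 194, 198 and 192 CPM against 1.89, 1.62 and 3.05 CPM. Dlx2, Dlx5 and Dlx6 had log2 fold changes of 7.43, 7.53 and 5.90. Factors of cells born in the medial ganglionic eminence were present, with Lhx6 at 248, 249 and 255 CPM in interneurons and 1.8, 2.96 and 3.36 CPM in granule cells. Sox6, Maf and Satb1 of the same lineage had log2 fold changes of 4.97, 5.88 and 2.09. Nkx2-1, which starts that lineage and is retained by few cells, was at 7.26 ± 0.923 CPM (SD, n = 3) against 0.158 ± 0.0405 CPM. Factors linked to the caudal eminence rose as well, with Sp8 at 19.4 CPM against 0.0732 CPM, Npas1 at 119.8 against 1.83 CPM and Nr2f2 at 76.5 against 30.7 CPM. Sp9, a relative of Sp8, had a log2 fold change of 6.96. The exceptions were Prox1, Etv1 at 18.7 CPM in interneurons and 80 CPM in granule cells, and Zfhx4 at 2.35 and 12.6 CPM.

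Markers of interneuron subclasses were also nearly uniform in direction, with 23 of 25 called higher in interneurons and a median log2 fold change of 5.41. The somatostatin gene Sst was at 1542, 1376 and 1654 CPM in interneurons and 14.2, 27.3 and 38.6 CPM in granule cells. Pvalb, which marks fast-spiking basket and axo-axonic cells, was at 254, 229 and 258 CPM against 0.587, 1 and 1.39 CPM. Vip, of cells that inhibit other interneurons, was at 187, 153 and 197 CPM against 0.454, 0.195 and 0.366 CPM. Vip had the largest fold among protein-coding genes with a mean of at least 10 CPM in interneurons, with a log2 fold change of 8.97 ± 0.19 (adjusted p = 3.6e-09, edgeR). Npy, of neurogliaform and ivy cells among others, was at 328, 302 and 351 CPM against 2.35, 2.84 and 3.82 CPM. The serotonin-gated channel gene Htr3a, Ndnf of neurogliaform cells and Reln had log2 fold changes of 8.18, 6.04 and 4.64. Cnr1, the cannabinoid receptor of cholecystokinin basket cells, was at 1094 CPM against 39 CPM. Levels per length placed Sst highest among the markers of this list in interneurons, at 5301 TPM, followed by Npy at 1817, Cck at 1246, Pvalb at 609.7 and Cnr1 at 444 TPM, with Vip at 347 and Calb2 at 112 TPM further down. In these bulk libraries fewer cells of a subclass and less RNA per cell cannot be told apart. Cck and Nos1 passed the test but not the 2-fold limit. Cck was at 339.8, 318 and 342 CPM in interneurons and 174, 233 and 266 CPM in granule cells, and Nos1 was at 255 and 209 CPM. Calb2, known from interneurons and from mossy cells, was at 66.1, 71.7 and 77.1 CPM in interneurons and at 3.2, 15.9 and 1.39 CPM in granule cells, where replicate 2 stood apart. Its log2 fold change was 3.47 with that library and 4.96 without it.

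Granule cell markers fell in interneurons in 13 of 15 cases, with a median log2 fold change of -4.32. C1ql2, a secreted synaptic organizer of mossy fibers, was at 3.83, 4.17 and 2.96 CPM in interneurons and 603, 571 and 489 CPM in granule cells. Its relative C1ql3 was at 11.5, 8.2 and 8.36 CPM against 634, 654 and 588 CPM. Dsp, a desmosomal protein gene known for its dentate pattern, was at 3.73, 3.82 and 2.23 CPM against 387, 367 and 348 CPM. The log2 fold changes of the 3 genes were -7.24, -6.06 and -6.80. They did not overlap between cell types, as was so for 2275 of the 2304 genes called on that side. The tryptophan dioxygenase gene Tdo2 was at 0.171 CPM against 34.8 CPM, the lactase gene Lct at 2.2 against 236 CPM, Plk5 at 2.23 against 84.4 CPM and the ciliary transcription factor gene Rfx3 at 13.9 against 307 CPM. Calb1, which encodes calbindin and is strong in mature granule cells but also present in some interneurons, differed less, at 136, 158 and 172 CPM against 529, 555 and 470.3 CPM. Trpc6 and Cntnap5a passed the test with log2 fold changes of -0.90 and -0.77, short of 2-fold. Interneuron libraries retained small amounts of the granule cell genes. C1ql2 stood at 0.659% of the granule cell level, Dsp at 0.887%, Slc17a7 at 3.57% and Prox1 at 8.04%.

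Transcription factors of pallial excitatory neurons were higher in granule cells for 12 of 15 genes. Neurod2, a basic helix-loop-helix factor of excitatory neurons, was at 10.3, 9.62 and 11.8 CPM in interneurons and 627, 686 and 530.2 CPM in granule cells. Neurod1, needed for granule cell formation, was at 0.801 CPM against 48 CPM, and Tbr1 was at 1.83 CPM against 101 CPM. Emx1, Emx2 and Lhx2, which pattern the pallium, had log2 fold changes of -5.33, -3.76 and -3.19. Zbtb18, Bcl11b and Klf9 had log2 fold changes of -3.50, -2.59 and -2.21. Bcl11a, expressed in excitatory and inhibitory forebrain neurons, passed the test with a log2 fold change of -0.72, short of 2-fold, and Mef2c had 0.21. Neurod6, which is better known from pyramidal neurons, was at 14.9, 16.4 and 33.6 CPM in granule cells, highest in replicate 3.

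The libraries were checked for other hippocampal cell types, and myelin genes stood out. All 8 markers of oligodendrocytes and their precursors were called higher in interneurons, with a median log2 fold change of 3.03. Mbp was at 1168, 1139 and 1098 CPM against 283, 292 and 301 CPM. The summed level of the list was 2862 to 3067 TPM in interneurons and 291.8 to 416 TPM in granule cells, and it was 999 to 1220 TPM in the batch 1 astrocyte libraries of the cortex. No marker of the list was at 0 in any of the 6 libraries. The part of these transcripts in the other differences was not tested. Other glial markers did not move in this way. None of 6 astrocyte markers and none of 6 microglia markers was called at 2-fold, and the summed astrocyte list was 41.9 to 54.3 TPM in interneurons and 30.04 to 68.8 TPM in granule cells. Of 7 endothelial, mural and choroid markers only Flt1 was called, higher in granule cells at 7.22, 4.66 and 8.09 against 21.8, 7.98 and 12 CPM, with libraries that overlapped, and it did not pass the test without interneuron replicate 1 or 2 or without granule cell replicate 1, at log2 fold changes of -1.13, -0.85 and -0.60.

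Markers of other hippocampal excitatory neurons were mixed. Of 8 markers of CA2 and CA3, 6 were called higher in granule cells, with summed levels of 885.9 to 986.8 TPM against 84.5 to 122.9 TPM in interneurons. The sum rested largely on Nptx1, a secreted pentraxin gene at 55.6 CPM in interneurons and 1739 CPM in granule cells, and Rgs14, of CA2, was at 8.56 and 157 CPM. Of 5 CA1 markers, 4 were called higher in granule cells and Mpped1 in interneurons, at 254 against 107 CPM, which was short of 2-fold within batch 2 at a log2 fold change of 0.88. Wfs1, of CA1, was at 81.9, 121 and 229 CPM in granule cells, again with the highest value in replicate 3, and without that library its log2 fold change was -0.89 and no longer 2-fold. Among 5 mossy cell markers only Drd2 was called, higher in interneurons at 17.2 against 1.24 CPM. Csf2rb2, Glipr1 and Calcrl of this list were low, at 0.285, 0.28 and 0.879 CPM in interneurons. In granule cells they were at 0.368, 0.472 and 1.22 CPM. At such levels they say little about mossy cells. Of 8 tested genes of immature granule cells and progenitors, 4 were called higher in interneurons, namely Sox2, Igfbpl1, Dcx and Sox4. Sox2 was at 54.7, 61.2 and 58.4 CPM against 1.67, 1.48 and 2.62 CPM. Oligodendrocyte precursors are also known to express it, and their marker Cspg4 was at 7.84 CPM in interneurons against 3.83 CPM. The part of such cells in the Sox2 difference was not tested. Igfbpl1 was at 14.7, 12.9 and 3.79 CPM in interneurons, with replicate 3 below the other two.

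**Figure D3:**
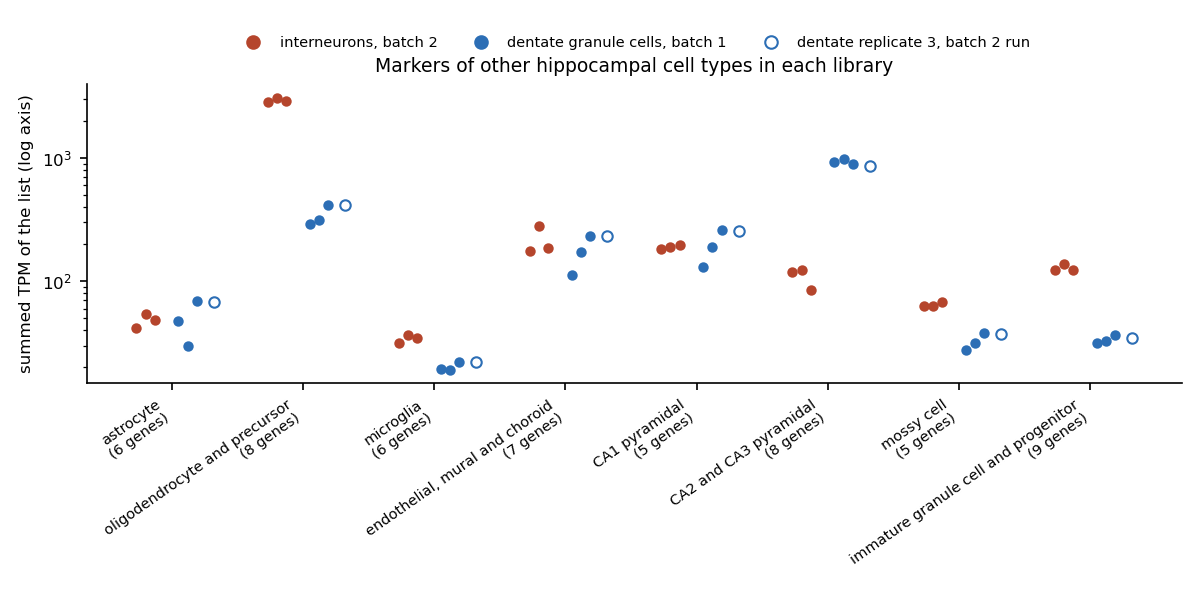
Summed TPM (log axis) of marker lists for 8 other hippocampal cell types in each library, with red for interneurons, filled blue for batch 1 granule cells and open blue for the batch 2 run of granule cell replicate 3. The oligodendrocyte list is at 2862 to 3067 TPM in interneurons against 291.8 to 416 TPM in batch 1 granule cells, while the astrocyte list overlaps between the cell types.

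Receptors for GABA differed in their subunit make-up. Of 12 GABA-A receptor subunit genes tested, 4 were called higher in interneurons, Gabra3, Gabrg1 and Gabrg3 among them, and 4 were called higher in granule cells, with Gabra4, Gabra5 and Gabrb1 among them. Gabra5, whose receptors carry tonic inhibition in the hippocampus, was at 33.3, 33.7 and 30.6 CPM in interneurons and 188, 201 and 163 CPM in granule cells. It held 4.37% ± 0.083 (SD, n = 3) of the TPM of the 6 alpha subunits in interneurons and 30.4% ± 1.8 in granule cells. Gabra4 held 5.52% ± 0.34 and 20.4% ± 0.75, and Gabra3 held 10.1% ± 0.36 and 2.73% ± 0.58. In granule cells no alpha subunit gene held more than the 30.4% ± 1.8 of Gabra5. Among beta subunits, Gabrb2 made up 57.8% ± 0.6 in interneurons and 24.4% ± 1.2 in granule cells. Gabrg3 was 9.76-fold and Gabrg1 17.7-fold higher in interneurons. Gabrd, the delta subunit of extrasynaptic receptors known in granule cells and in some interneurons, was at 53.3, 48.6 and 56 CPM and 65.5, 61.6 and 55.9 CPM, and the groups overlapped.

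Among AMPA receptor genes, Gria4 and Gria2 moved in opposite directions. Gria4, the subunit of fast interneuron receptors, was at 244, 247 and 233 CPM in interneurons and 15.8, 17.4 and 19.6 CPM in granule cells. Gria2, the edited subunit that makes receptors impermeable to calcium, was at 281, 286 and 238 CPM against 929, 898 and 804 CPM. As a share of the TPM of the 4 subunits, Gria2 was 13.3% ± 0.63 in interneurons and 39.3% ± 0.73 in granule cells, and Gria4 was 14.8% ± 0.32 and 1.02% ± 0.17. Gria1 led in both cell types, at 61.9% ± 0.32 and 51.1% ± 0.48. The Gria1 level itself, at 1691, 1667 and 1493 CPM and 1534, 1552 and 1415 CPM, did not pass the test (adjusted p = 0.2, edgeR), but passed without interneuron replicate 3, at a log2 fold change of 0.20. Of the auxiliary subunits, Cacng2, Cacng4 and Cacng7 were called higher in interneurons, with log2 fold changes of 2.31, 3.86 and 1.34, and Cnih3 was called higher in granule cells at -2.13.

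NMDA receptor genes were likewise divided by subunit. Grin2d, whose receptors deactivate slowly, was at 179, 168 and 168 CPM in interneurons and 8.08, 8.28 and 7.56 CPM in granule cells. It held 40.4% ± 1.8 of the TPM of the 4 GluN2 genes in interneurons and 1.32% ± 0.022 in granule cells. Grin2a and Grin2b, the usual partners in principal neurons, were 3.26-fold and 2.24-fold higher in granule cells, and Grin3a was 4-fold higher in interneurons. Of 12 kainate and metabotropic receptor genes, 3 were called higher in each cell type. Grik1, a kainate receptor subunit of interneurons, was at 108 CPM against 2.23 CPM, and Grm4 and Grm8 were also called higher in interneurons, Grm8 at a log2 fold change of 1.08 that was 0.34 within batch 2 and no longer passed the test. Without granule cell replicate 1 or 2 or interneuron replicate 2 it was 0.85, 0.97 and 0.99, short of 2-fold. Grm2, the presynaptic autoreceptor of mossy fibers, was at 6.67, 7.03 and 5.46 CPM in interneurons and 329, 385 and 300.2 CPM in granule cells, with Grik4 and Grm7 on the same side.

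**Figure D4:**
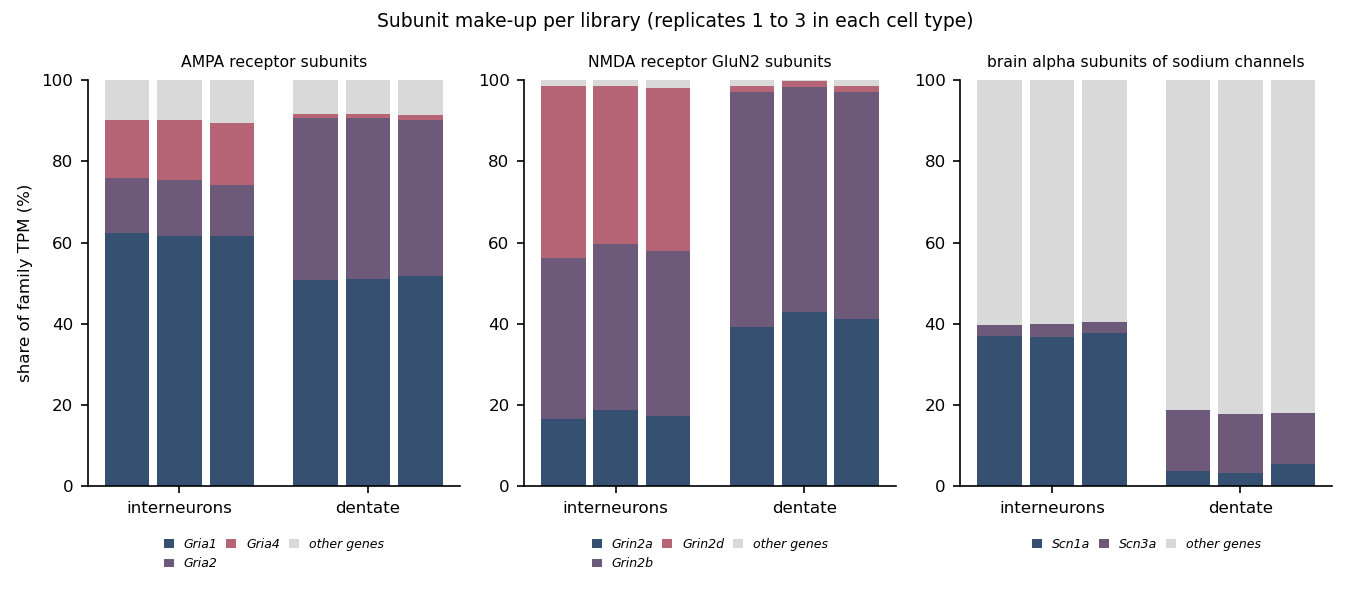
Share of each subunit in the summed TPM of its family (vertical axis, %), as stacked bars for interneuron replicates 1 to 3 and granule cell replicates 1 to 3 in 3 receptor and channel families, with the remaining genes of a family summed in gray. Replicates are nearly alike within a cell type, while Gria4, Grin2d and Scn1a take larger shares in interneurons and Gria2, Grin2a and Scn3a in granule cells.

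Postsynaptic density and calcium signaling genes of excitatory spines were on the side of the granule cells. Of 14 genes, 9 were called higher in granule cells and none in interneurons, with a median log2 fold change of -1.36. Camk2a, the most abundant of all genes called at least 4-fold higher in granule cells, was at 1251, 1131 and 858 CPM in interneurons and 8212, 8673 and 7893 CPM in granule cells. Nrgn, a calmodulin-binding protein gene of spines, was at 152, 149 and 129 CPM against 2517, 2914 and 2403 CPM. Their log2 fold changes were -2.94 ± 0.14 and -4.18 ± 0.1. Camk2b, the calcineurin subunit gene Ppp3ca and Baiap2 had log2 fold changes of -2.58, -2.72 and -3.72, and the scaffold and signaling genes Dlg4 and Shank2 had -1.26 and -1.44. The kinase gene Ptk2b, the dendritic protein gene Ddn, the adenylyl cyclase gene Adcy1 and Ncdn, which completed the 8 most abundant genes of this side, were 19.3-fold, 9.39-fold, 5.62-fold and 4.65-fold higher in granule cells. On the interneuron side the 8 most abundant genes included Gad1, Cplx1, Sst, Gad2, Nap1l5 and Rab3c. Cplx1, a complexin of fast vesicle release, was at 2293 CPM against 336 CPM.

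Among ion channel genes, members of the same family often lay on opposite sides. The Kv3 genes Kcnc1 and Kcnc2, which encode channels that allow fast spiking, were at 911 and 517 CPM in interneurons and at 196 and 9.98 CPM in granule cells. Kcnc2 was at 500.0, 494 and 557 CPM in the interneuron libraries and 7.84, 8.28 and 13.8 CPM in the granule cell libraries. As a share of the 4 Kv3 genes by TPM, Kcnc1 and Kcnc2 were 49% ± 0.94 and 31.1% ± 1.8 in interneurons, whereas Kcnc4 was 3.6% ± 0.12 in interneurons and 26.9% ± 0.63 in granule cells. Of 20 potassium channel genes, 5 were called higher in interneurons, Kcnip1 and the axonal Kcna2 and Kcna6 among them, and 9 were called higher in granule cells. The log2 fold change of Kcna6 was 1.81 over all its transcripts and -0.70 over those annotated as protein_coding. The granule cell side held the A-type genes Kcnd2, Kcna4 and Kcnip4 at log2 fold changes of -1.62, -2.01 and -1.99 and the inward rectifier genes Kcnj3 and Kcnj6 at -1.13 and -2.47. Scn1a, the sodium channel gene on which fast-spiking interneurons depend, was at 239.8, 262 and 255 CPM in interneurons and 25.5, 21.8 and 35.8 CPM in granule cells, and it made up 37% ± 0.51 and 4.15% ± 1.2 of 4 brain sodium channel genes. Scn3a was 4.26-fold higher in granule cells. The pacemaker genes Hcn2 and Hcn4 were 3.17-fold and 14.1-fold higher in interneurons. Among calcium channels, Cacna1h and Cacna1e were 9.7-fold and 9.11-fold higher in granule cells, and Cacna1g was 2.13-fold higher in interneurons, with a log2 fold change of 1.09 that was 0.95 within batch 2.

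Calcium-binding and neuropeptide genes were divided between the cell types. Of 10 calcium-binding genes, 4 were called higher in interneurons and 5 in granule cells. Beside Pvalb and Calb2, Necab1 and Vsnl1 were 5.67-fold and 3.04-fold higher in interneurons, and Hpca and Hpcal4 were 4.54-fold and 4.33-fold higher in granule cells. Of 15 neuropeptide precursor genes, 9 were called higher in interneurons. Pnoc, the nociceptin precursor, was at 107 CPM against 0.872 CPM, Tac1 at 64.7 against 0.427 CPM and Cort at 26.5 against 0.529 CPM. Tac2 was at 24.8, 23.6 and 28.9 CPM in interneurons and at 0.0568, 0 and 0.116 CPM in granule cells, close to no signal. Another 3 precursors were higher in granule cells. Pdyn, the dynorphin precursor of mossy fibers, was at 9.19, 8.83 and 27.9 CPM in interneurons and 90.3, 97.8 and 81.5 CPM in granule cells, and Grp and Adcyap1 were at 23.4 and 2.76 CPM in granule cells against 0.887 and 0.317 CPM. Penk, the enkephalin precursor, varied among interneuron libraries at 93, 81.4 and 209 CPM, with replicate 3 more than 2-fold above the others, and was at 37.9, 53.6 and 36 CPM in granule cells. Pdyn was also highest in that interneuron replicate, without which its log2 fold change went from -2.56 to -3.28.

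Receptors for monoamines, acetylcholine and opioids were mostly interneuron genes, with 11 of 17 called higher there and 3 in granule cells. Beside Htr3a, the serotonin receptor genes Htr2a and Htr2c were 22-fold and 4.65-fold higher in interneurons. The noradrenaline receptor genes Adra1a and Adra1b had log2 fold changes of 3.30 and 4.65, and Chrm2, a muscarinic receptor gene of interneuron terminals, had 5.14, or 6.21 without granule cell replicate 3. The opioid receptor genes Oprm1 and Oprd1 were at 4.6 and 79.8 CPM in interneurons and at 0.376 and 7.42 CPM in granule cells. Granule cells had higher Chrm1 (4.82-fold), Htr4 (8-fold) and Htr1a (2.23-fold).

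Several synaptic organizers and matrix genes were higher in interneurons. Nxph1, a neurexin ligand, was at 249, 246 and 258 CPM in interneurons and 1.33, 2.45 and 3.95 CPM in granule cells. Elfn1, which recruits presynaptic glutamate receptors at synapses onto interneurons, and the cerebellin genes Cbln2 and Cbln4 had log2 fold changes of 5.72, 4.45 and 5.11, and that of Cbln2 was 5.09 without granule cell replicate 3. Nrxn3 was 7.89-fold higher in interneurons, while Lrrtm4, a synaptic protein of granule cell dendrites, was 2.88-fold higher in granule cells. In all, 5 of 16 organizers were called higher in interneurons and 2 in granule cells, with a median log2 fold change of 0.056. Over all tested genes 16.9% and 13.3% were called. Of 9 genes of perineuronal nets, 5 were called higher in interneurons and 1, Ncan, in granule cells at a log2 fold change of -1.33. Hapln1, the link protein of these nets, was at 164, 190.3 and 171 CPM against 1.23, 0.865 and 1.29 CPM, and Hapln4 was 7.21-fold higher. Acan, the core proteoglycan of the nets, was low at 6.32 and 3.33 CPM, and passed the test at a log2 fold change of 0.92, short of 2-fold. Bcan, Vcan and Tnc, which glia also express, were called higher in interneurons, and the oligodendrocyte markers moved with them. Their part in these 3 differences was not tested. The log2 fold change of Bcan was 1.36, and it did not pass the test over transcripts annotated as protein_coding, at 0.80. With batch as a term in 6 libraries that include the batch 2 granule cell run it was 1.05 and did not pass. Within batch 2 it was likewise 1.05.

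Genes of trophic factors and their receptors lay on both sides. Bdnf, the neurotrophin stored in mossy fibers, was at 1.26, 1.71 and 1.4 CPM in interneurons and 67, 71.3 and 68 CPM in granule cells. The groups did not overlap, and the log2 fold change was -5.55 ± 0.1. Ntrk2, the receptor gene for BDNF, was 2.37-fold higher in interneurons, and Ntf3 was 3.9-fold higher in granule cells. Erbb4, the neuregulin receptor gene of interneurons, was at 349 CPM against 3.44 CPM.

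Of 11 activity-regulated genes, 1 was called higher in interneurons and 4 in granule cells, beside 16.9% and 13.3% of all tested genes. Egr3 was at 15.6, 21.2 and 17 CPM in interneurons and 195, 197 and 183 CPM in granule cells, and Junb and Nr4a2 were also called higher in granule cells. Fos was called higher in interneurons, at 6.16, 42.4 and 43.9 CPM against 3.03, 4.82 and 3.66 CPM, with interneuron replicate 1 far below the other two. Egr1, at 33.6, 84.6 and 72.3 CPM and 40.6, 47.6 and 48.2 CPM, did not pass the test at a log2 fold change of 0.48 (adjusted p = 0.15, edgeR). It passed without interneuron replicate 1, the lowest of the interneuron libraries, at 0.81, and with no filter on low counts at 0.51.

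Further genes with the largest folds lay outside the lists, apart from Sncg. On the interneuron side they were Akr1c18, a steroid dehydrogenase gene, at 21.8, 21.5 and 23.1 CPM against 0.0947, 0.0837 and 0 CPM, the keratin gene Krt73 at 59.2 against 0.253 CPM and the silent potassium channel subunit gene Kcng4 at 69.6 against 0.415 CPM. Sncg, of the synuclein family and the list of subclass markers, was at 19.9 against 0.0787 CPM. On the granule cell side they were the transcription factor genes Prdm8 and Bhlhe22, at 416 and 388 CPM in granule cells against 5.85 and 5.14 CPM. The matrix proteoglycan gene Dcn was at 88.8 against 1.12 CPM, the keratin gene Krt2 at 34.8 against 0.374 CPM and the phospholipase gene Pla2g2f at 17.5 against 0.107 CPM. Rtl3, a gene derived from a retrotransposon, was at 28.2 against 0.182 CPM, and the receptor gene Glp2r was at 22.8 against 0.331 CPM.

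The machinery that makes and charges tRNAs, the subject of the study behind these libraries, differed little beside the genes above. Of 23 cytosolic aminoacyl-tRNA synthetase and cofactor genes, only Eef1e1 was called, at 30, 29.4 and 32 CPM in interneurons and 13.7, 16.7 and 14.5 CPM in granule cells. Its log2 fold change of 1.03 lay at the 2-fold limit and was 0.96 without granule cell replicate 1 and 1.00 without replicate 3. A further 16 of the 23 passed the test with changes under 2-fold, so that 17 of 23 reached the adjusted p of 0.05, as did 69.6% of all tested genes. The median log2 fold change of the 23 was 0.25, beside 0.005 over all tested genes. Among those short of 2-fold were Sars, Nars, Aars and Hars, for the serine, asparagine, alanine and histidine enzymes, at log2 fold changes of 0.94, 0.88, 0.88 and 0.76. Of 19 genes of RNA polymerase III and its factors, only Polr3d was called, at 33.4, 33.6 and 32.6 CPM against 14.7, 16.7 and 14.6 CPM, and the list median was -0.20. A further 15 of the 19 passed the test with changes under 2-fold and 3 did not pass, where 69.6% of all tested genes passed. Bdp1 and the repressor gene Maf1 were lower in interneurons at -0.85 and -0.53.

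**Figure D5:**
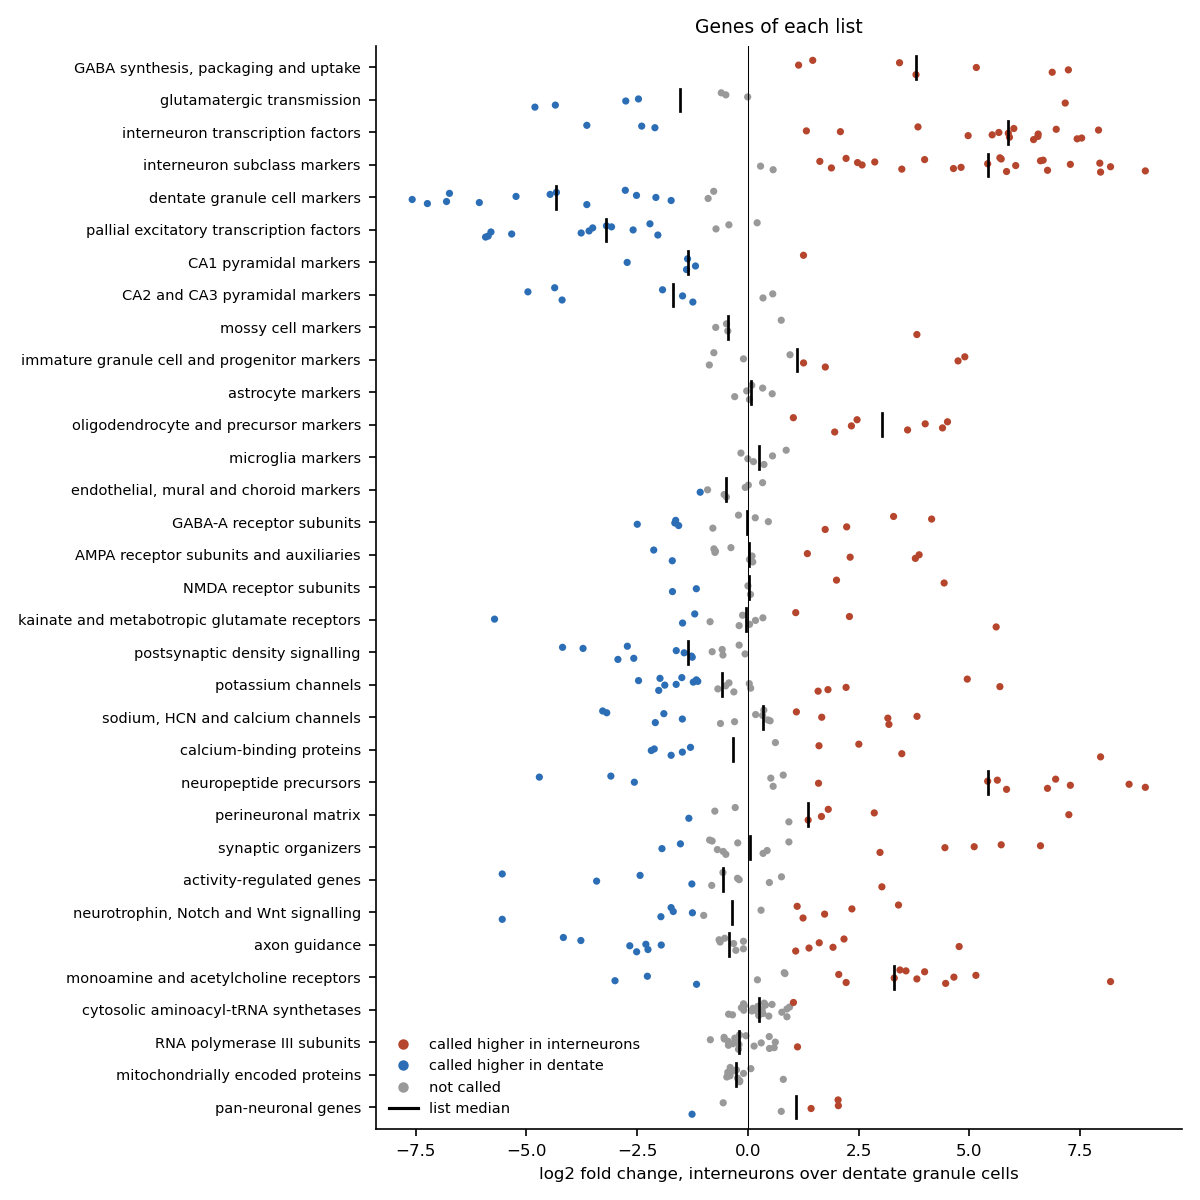
Log2 fold change of interneurons over granule cells (horizontal axis) for each tested gene of 33 lists (rows), with called genes in red or blue, genes not called in gray and a black bar at each list median. The list of GABA genes (median 3.79) and that of subclass markers (median 5.41) lie to the right, that of granule cell markers (median -4.32) to the left, and the synthetase and polymerase III lists cluster near 0.

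The genes of the tag and the driver were also read. Both cell types carried the same Rpl22 allele, so its level cannot check the labels. Rpl22 was at 46.5, 47.2 and 50.2 CPM in interneurons and 69.4, 74.5 and 66.7 CPM in granule cells, and passed the test short of 2-fold. The endogenous Rbp4 gene was at 28.6, 22.2 and 41.2 CPM in interneurons and 9.2, 10.4 and 10.8 CPM in granule cells, so the gene whose regulatory sequence drives Cre in the granule cell mice was itself called higher in interneurons. Transgene transcripts were not counted apart, so the level of endogenous Rbp4 does not report Cre. Of 6 pan-neuronal genes, Tubb3, Stmn2 and Syt1 were called higher in interneurons, with log2 fold changes of 2.04, 2.03 and 1.43, and Rbfox3 was called higher in granule cells at -1.26. None of the 13 mitochondrially encoded protein genes was called at 2-fold, 2 of them passed the adjusted threshold, and the median of the 13 was -0.26. None of 5 genes that follow the sex of the mice passed the test.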

How the data were processed

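RiboTag mRNA libraries were made from hippocampus with the KAPA Stranded mRNA-Seq kit and sequenced as paired ends. The authors trimmed reads with cutadapt 3.5, quantified GENCODE M24 transcripts (GRCm38) with kallisto 0.46.2 and deposited, for each transcript, raw estimated counts beside TPM. Estimated counts were summed per gene over all its transcripts and rounded. The test was the quasi-likelihood test of edgeR 4.0.16 (R 4.3.3) on the 6 libraries, with TMM scaling, filterByExpr and Benjamini-Hochberg adjustment over all tested genes, and it was tested on simulated data. Genes were called at an adjusted p no higher than 0.05 with a 2-fold change or more. The study's own tool, sleuth, was not run. TPM served to set genes beside each other, as means of the deposited values. It also served for summed marker lists per library, for shares within gene families and in the limma alternative. The alternatives, DESeq2 1.42.0 and limma 3.58.1 on log2(TPM + 1) among them, were run on the same libraries or on other sets of libraries of the series, as named with each. Gene coordinates are those of GENCODE M21 on GRCm38. The text names genes of 35 lists, the 12 protein-coding genes per side with the largest fold among those with at least 10 CPM and no overlap, and the 8 most abundant called genes per side with at least 4-fold change, and some of them are not reported here. The comparison and the lists were chosen with earlier results of these data known. Replicates are separate mice or pools of 2 mice. P-values rest on 3 libraries per cell type, and depth was 38270477 to 59763961 counts per library.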

Additional observations from a re-analysis of the deposited data

How the results depend on the processing

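The 2 counts of called genes stayed within 1.5 times of the reported 2932 and 2304 under all 19 alternatives. They were 1998 and 1554 with TPM and limma at the low end, and 3431 (no filter on low counts) and 2744 (22 libraries with a batch term) at the high end. Leaving out each library in turn gave 2931 to 3135 and 2235 to 2435 genes. The log2 fold changes of Gad1, Gad2 and Prox1 kept their direction and their side of the threshold throughout, at 3.73 to 3.84, 6.68 to 7.09 and -3.73 to -3.54 with a library left out and at 3.68 to 3.90, 6.45 to 6.90 and -3.67 to -3.44 otherwise. Replicate numbers did not pair the libraries, since deviations of same-numbered libraries correlated at -0.045, 0.119 and 0.088 and only 3 of 6 correlated best with their own number in the other cell type. A replicate block gave 3070 and 2385 genes and log2 fold changes of 3.80, 6.89 and -3.63 for Gad1, Gad2 and Prox1, and moved no named gene across the threshold. Of 212 named genes, 178 kept their direction and their side of the adjusted p of 0.05 under every alternative. A test against a 2-fold change put 29 on the other side, with log2 fold changes of up to 1.59 in size (Penk). Reversals were Kcna6 at -0.70 with protein_coding transcripts alone, and Xist at 7.79 within batch 2, at 1.14 with 22 libraries and a batch term and at 7.79 with a batch term in the 6 libraries that include the batch 2 granule cell run, a fit chosen after seeing the data. That run is from a male. Within batch 2, 19 named genes moved by over 1.5 times on the linear scale and 3 crossed the threshold, and the interneuron fits there rest on 1 granule cell library, assumed to vary like the interneurons. In TPM with a pseudocount of 1, 58 moved by over 1.5 times. Log2 fold changes of transcripts near no signal in 1 cell type (Tac2, Akr1c18, Sp8) rest on few counts.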

Other observations

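Axon guidance genes were split between the cell types, with 6 of 20 called higher in interneurons and 7 in granule cells. The shares over all tested genes were 16.9% and 13.3%. Sema3c, a secreted semaphorin gene, was at 114, 121 and 116 CPM in interneurons and 5.17, 3.96 and 3.72 CPM in granule cells, and the netrin receptor gene Unc5d was 4.49-fold and Robo1 3.05-fold higher in interneurons. Granule cells had more of the Slit ligand gene Slit3 at 134, 138 and 121 CPM, against 8.5, 10.3 and 9.92 CPM in interneurons. The netrin-G gene Ntng2, the Eph receptor genes Epha4 and Epha7, the semaphorin gene Sema5a and the semaphorin receptor genes Nrp1 and Plxna4 were also on their side, with log2 fold changes of -4.17, -2.51, -2.26, -2.67, -2.30 and -1.96. Among Wnt and Notch genes, Wnt7a and the secreted antagonist gene Sfrp1 were 5.08-fold and 10.5-fold higher in interneurons, and Notch1 and Notch2 were 2.38-fold and 3.22-fold higher in granule cells, at 12.5 and 16.4 CPM. Within batch 2 the log2 fold change of Notch1 was -0.97, short of 2-fold.

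Gm21541, a predicted gene on chromosome 4, had no count in any of the 3 interneuron libraries, among 155300898 estimated counts, and 191 to 2581 counts in each of the other 19 libraries of the series. At a floor of 3 counts per library it was at least 233-fold higher in granule cells. The cause was not tested.

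Granule cell replicate 1 stood above the other batch 1 granule cell libraries in 2 non-coding transcripts that were looked at on their own. Gm42418, which overlaps ribosomal RNA, took 16390.0 counts per 1000000 there against 3359 and 4654 in replicates 2 and 3. Xist took 188.6 against 39.9 in the other female replicate. Among interneuron libraries Gm42418 was also highest in replicate 1, at 6056 counts per 1000000 against 2346 and 2261 in replicates 2 and 3.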
